A study of Mus musculus with 71 samples.

Results

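The transcription factors that mark position along the gut epithelium were followed in bulk RNA-sequencing of Btnl2-KO and WT mice. The genes are Pdx1, Gata4, Gata5, Gata6, Cdx1, Cdx2, Hnf4a, Hnf4g and Onecut2. They were chosen by name, as factors known for regional or epithelial identity in the gut, and they are 9 of the 24475 gene identifiers in the 3 bulk tables. All mice were C57BL/6, and both genotypes are represented in each fraction. Btnl2-KO mice carry a germline Btnl2-/- null allele, made by placing a LacZ cassette at the start codon together with a selection cassette that interrupts transcription, so the gene is targeted in every cell and not in the epithelium alone. The 16 libraries of intestinal epithelial cells (IECs), from mice labelled 7 weeks old, comprise 2 Btnl2-KO and 3 WT libraries of the duodenum, 3 and 3 of the jejunum, and 3 and 2 of the ileum. The 22 libraries of sorted γδ intraepithelial lymphocytes (IELs), from mice labelled 10 weeks old and described by the study as pools of 2 mice, comprise 3 Btnl2-KO and 4 WT libraries of the duodenum, 4 and 4 of the jejunum, and 3 and 4 of the ileum. The 27 libraries of whole tissue are all labelled YNG, read here as young, with no age in weeks. They hold 13 of colon, of which 6 are WT, and 14 of small intestine, of which 7 are WT. No segment is given for the latter.

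The gut epithelium is one continuous sheet whose absorptive cells change their work from the duodenum to the colon, and transcription factors with graded or bounded expression hold that pattern in the adult. PDX1, a homeodomain protein shared with the pancreas, marks the duodenum. GATA4, a zinc finger protein, sustains lipid-absorbing genes of the proximal small intestine and holds back the bile acid transport genes of the ileum. CDX1 and CDX2, caudal-type homeodomain proteins, establish intestinal identity and posterior position, and the nuclear receptors HNF4A and HNF4G drive enterocyte differentiation and lipid handling.

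Levels are given as CPM, the count per 1000000 counts of the TMM-normalised library size, and fold changes as log2 values from edgeR's quasi-likelihood test with its standard error (SE). A gene was called where the false discovery rate (FDR) over all genes tested was below 0.05 and the fold change above 1.5. Total counts were 15397757 to 38258472 per IEC library, 13444958 to 30029485 per γδ IEL library and 13619309 to 21708721 per tissue library. The labels do not say which mice the libraries of a group came from, and the study describes its samples as biological replicates; the p-values measure the spread between these libraries. Segments were described as taken from one set of γδ IEL mice, so libraries of different segments may share mice, and the tests treat them as independent. In bulk RNA, fewer cells of a type and less of an RNA per cell cannot be told apart.

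Btnl2 was read first as a check of the genotype labels. It was 23.9 to 103 CPM in WT and 0.675 to 2.44 CPM in Btnl2-KO small intestine tissue, 0.651 to 2.40 CPM and at most 0.0452 CPM in colon tissue, and 2.47 to 9.89 CPM and at most 0.123 CPM in γδ IEL libraries. In IECs, WT libraries held 25.1 to 67.7 CPM and 6 of 8 Btnl2-KO libraries 0.342 to 0.595 CPM, but jejunal Btnl2-KO library 2 was at 19.5 CPM and duodenal Btnl2-KO library 1 at 5.45 CPM, as labelled.

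Position labels were read against Fabp6 and Slc10a2, the bile acid binding protein and bile acid transporter of ileal enterocytes, and 3 IEC libraries stood apart. Fabp6 was 580 and 586 CPM in the WT ileum and at most 20.2 CPM in the WT duodenum and jejunum. It reached 220.3 CPM in the library labelled duodenal Btnl2-KO 1 and 484 CPM in the one labelled jejunal Btnl2-KO 2, and it was 0.231 CPM in the one labelled ileal Btnl2-KO 1. Slc10a2 was 18.3, 35.2 and 0.173 CPM in these libraries, against 37.9 to 43.8 CPM in the WT ileum and at most 1.17 CPM elsewhere in WT IECs. All 3 are Btnl2-KO libraries, so comparisons among WT segments do not hold them, and genotype comparisons are given with and without them. The iron reductase gene Cybrd1, often used as a duodenal marker, did not follow the labels: it was 2.32 to 2.38 CPM in the WT duodenum, 2.81 to 4.35 CPM in the jejunum and 2.55 to 4.09 CPM in the ileum. Cybrd1 is 1 of 4 duodenal position markers. Their sum was 103 to 161 CPM in the WT duodenum, 60.6 to 89.1 CPM in the jejunum and 132 to 170 CPM in the ileum. Unlike Cybrd1, the sum was thus lower in the jejunum than in the duodenum.

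Small intestine tissue was not uniform either. Slc10a2 was 78.5 to 397 CPM in 11 of 14 libraries, but 6.17 CPM in Btnl2-KO library 1, 6.36 CPM in WT library 5 and 14.7 CPM in WT library 7. Lct, the lactase gene of proximal enterocytes, was 2036 CPM in the first and 402 CPM in the second of these, and 0.225 to 8.17 CPM in the other 12 libraries. Car1, a carbonic anhydrase of colonocytes, was 846 and 1624 CPM in WT small intestine libraries 2 and 3, within or above its range of 575 to 1212 CPM in the colon. Car1 is 1 of 6 colon markers. Their sum was 65.0 to 1834 CPM in WT small intestine, below the 2014 to 2403 CPM of WT colon. The labelled fractions otherwise held their defining markers: Epcam was 623 to 1077 CPM in IECs, the T cell gene Cd3e 846 to 1923 CPM in γδ IEL libraries, and the smooth muscle gene Myh11 477 to 2502 CPM in whole tissue.

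Pdx1 and Cdx2 lie next to each other in the mouse genome, 25.1 kb apart on chromosome 5, at chr5:147270097-147275848 and chr5:147300900-147307249 (RefSeq, GRCm38.p6). The 250 bases before their starts are printed because the neighbours showed different patterns along the gut. Hnf4a was read at 2 RefSeq starts, and the windows before both are printed because they alone among the windows searched held a motif. RefSeq places the Hnf4a gene at chr2:163506811-163572907, so the first window ends inside the gene and the second lies wholly inside it. All sequences are 5′ to 3′ on the gene's strand, with motif matches in capitals.
Pdx1, chr5:147269847-147270096, plus strand: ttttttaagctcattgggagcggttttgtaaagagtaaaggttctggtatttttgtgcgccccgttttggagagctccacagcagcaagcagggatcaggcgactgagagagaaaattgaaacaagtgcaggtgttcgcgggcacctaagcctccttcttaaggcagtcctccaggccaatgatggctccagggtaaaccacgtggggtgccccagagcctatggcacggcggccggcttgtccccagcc
Cdx2, chr5:147307250-147307499, minus strand: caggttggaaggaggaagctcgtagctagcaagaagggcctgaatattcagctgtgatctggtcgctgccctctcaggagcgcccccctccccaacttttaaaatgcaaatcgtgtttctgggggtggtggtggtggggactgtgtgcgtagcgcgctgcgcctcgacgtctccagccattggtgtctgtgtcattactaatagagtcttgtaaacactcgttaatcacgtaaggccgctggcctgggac
Hnf4a first start, chr2:163506607-163506856, plus strand: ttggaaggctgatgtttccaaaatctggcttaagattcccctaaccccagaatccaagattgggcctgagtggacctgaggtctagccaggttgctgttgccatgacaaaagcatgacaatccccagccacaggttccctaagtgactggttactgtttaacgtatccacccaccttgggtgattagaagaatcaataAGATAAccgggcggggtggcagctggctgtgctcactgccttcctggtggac
Hnf4a second start, chr2:163546905-163547154, plus strand: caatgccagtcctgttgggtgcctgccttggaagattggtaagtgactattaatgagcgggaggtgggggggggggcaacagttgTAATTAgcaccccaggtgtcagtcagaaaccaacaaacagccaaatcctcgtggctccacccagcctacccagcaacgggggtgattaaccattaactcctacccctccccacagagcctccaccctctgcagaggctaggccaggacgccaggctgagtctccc

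Promoter sequence was read for 4 of the 9 genes: Pdx1, Cdx2, Hnf4a and Gata5, whose window is chr2:180334680-180334929 on the minus strand. The Gata5 window lies inside the gene as RefSeq places it, at chr2:180325088-180335503. Each window was searched on both strands for 4 motifs. These were AGATAA, which binds factors with GATA-type zinc fingers, TTTATG for the caudal-type proteins, CAAAGTCCA for the HNF4 receptors, and TAATTA for homeodomain proteins of the PDX1 kind. The last reads the same on both strands, and no 2 matches overlapped. AGATAA occurred once, before the first Hnf4a start, and TAATTA once, before the second, while Pdx1, Cdx2 and Gata5 held none of the letters searched. Over 32851 RefSeq promoters of the same length, 9.99% held AGATAA, 10.8% TTTATG, 0.384% CAAAGTCCA and 4.84% TAATTA. A match describes letters only. GC content was 54.8% for Pdx1, 55.2% for Cdx2, 51.2% and 57.6% for the Hnf4a windows and 70% for Gata5, against a median of 52.4% over all promoters.

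The first comparison asked how the factors vary along the small intestine of WT mice, with IECs of the 3 segments in one fit. Pdx1, Gata4 and Onecut2 were high in the duodenum and low in the ileum, Cdx1 was higher in the ileum, and the remaining 5 factors did not pass the test in any of the 3 comparisons. For ileum against duodenum, 4 of 9 factors were called, 3 lower and 1 higher, and 6.59% of all genes tested were called (2.38% lower and 4.21% higher). For jejunum against duodenum it was 1 of 9, against 0.791% of all genes, and for ileum against jejunum 2 of 9, against 0.644%. The 3 comparisons share libraries and are not independent of one another.

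**Figure D1:**
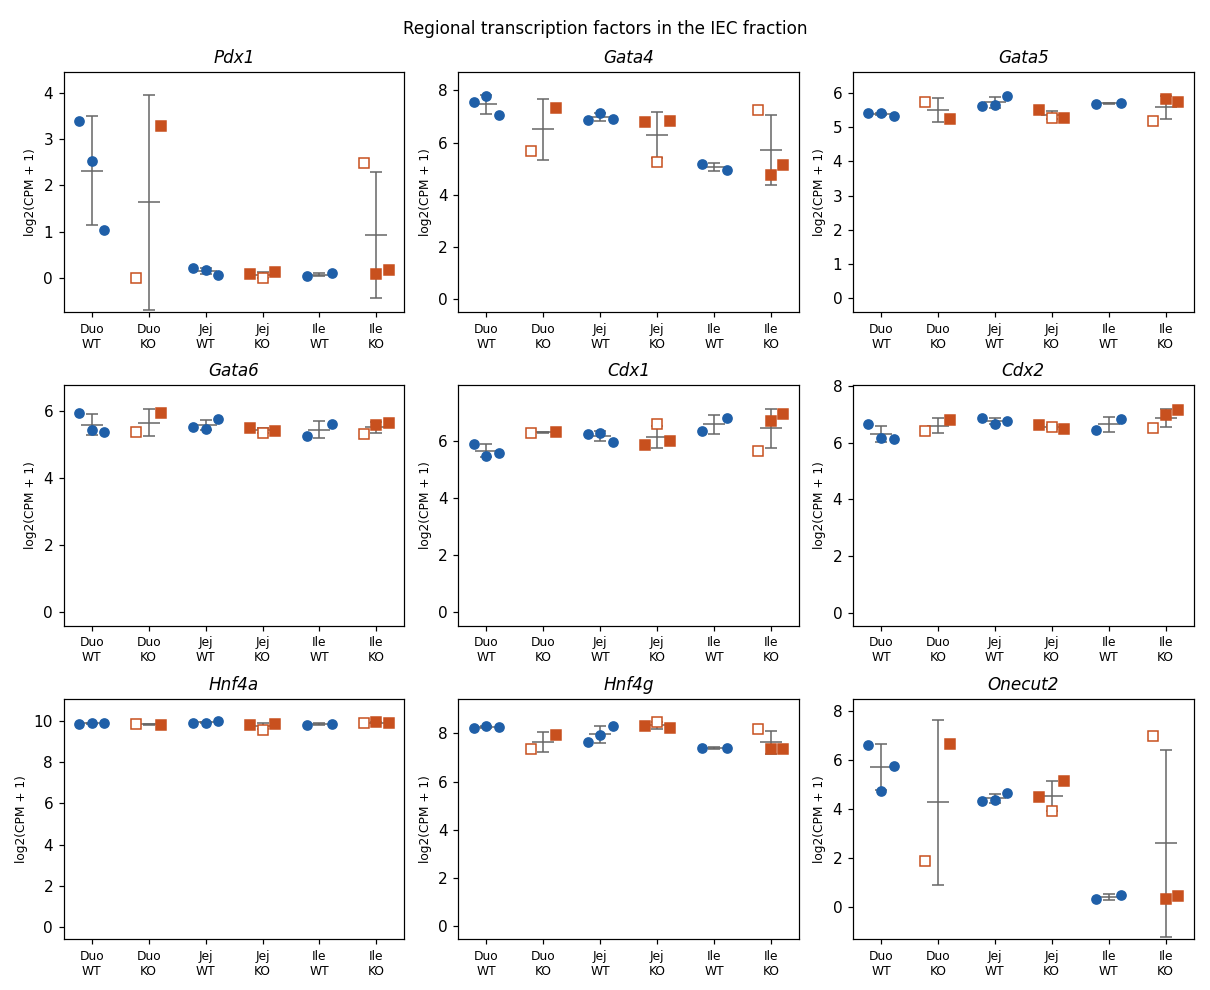
Level of the 9 factors in the 16 IEC libraries, as log2(CPM + 1), by segment and genotype. Blue circles are WT libraries, orange squares Btnl2-KO libraries, open squares the 3 Btnl2-KO libraries whose markers stand apart, and grey bars the group mean ± SD; Gata4 and Onecut2 are lowest in the WT ileum while Hnf4a lies at 910.4 to 1015 CPM in all WT libraries, and the open squares lie away from their groups for Gata4 and Onecut2.

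Pdx1 was a duodenal gene in these cells. It was 9.43, 4.77 and 1.06 CPM in the WT duodenum (mean 5.09 ± 4.19 SD, n = 3), 0.159, 0.126 and 0.0550 CPM in the jejunum and 0.0365 and 0.0728 CPM in the ileum. Every duodenal library lay above every jejunal and ileal one, while the duodenal libraries spread widely among themselves. In the jejunum Pdx1 was lower than in the duodenum by a log2 fold change of -5.33 (SE 0.84, edgeR FDR 0.0275), and in the ileum by -6.39 (SE 1.12, edgeR FDR 0.0102). Ileal counts were 1 and 2 per library, so the ileal fold is better given from summed counts: 86.3-fold lower than in the duodenum, with an exact 95% interval of 29.3 to 421 that covers counting error only. Jejunum and ileum, with 10 and 3 counts in all, were not distinguishable (2.25-fold, 0.579 to 12.7). The Pdx1 call for the jejunum was lost without WT duodenal library 1 (-4.53, edgeR FDR 0.0832) or without jejunal library 1, 2 or 3 (-5.60, -5.36 and -5.10, edgeR FDR 0.113, 0.110 and 0.152), and the ileal call without ileal library 1 (-6.03, edgeR FDR 0.114) or 2 (-6.91, edgeR FDR 0.0793). Pdx1 is also a pancreatic gene, and the 8 pancreatic acinar genes summed to 0.645, 12.5 and 0.114 CPM in WT duodenal libraries 1, 2 and 3, where Pdx1 was 9.43, 4.77 and 1.06 CPM, and to at most 0.750 CPM in any other IEC library. Their part in the result was not tested.

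Gata4 stepped down at the ileum. It was 189, 217 and 134 CPM in the WT duodenum (180.1 ± 42.6 SD), 117, 141 and 119 CPM in the jejunum (126 ± 13.2 SD) and 34.9 and 29.9 CPM in the ileum (32.4 ± 3.52 SD). The ileal libraries lay far below all others, whereas the lowest duodenal library fell below the highest jejunal one. Gata4 fell by 2.45 on the log2 scale from duodenum to ileum (SE 0.25, edgeR FDR 0.000889) and by 1.95 from jejunum to ileum (SE 0.25, edgeR FDR 0.0116), and duodenum and jejunum did not differ beyond their spread (-0.52, edgeR FDR 0.319). The call for ileum against jejunum did not hold without jejunal library 2 or 3 (-1.86 and -1.99, edgeR FDR 0.0552 and 0.0546) or ileal library 1 or 2 (-2.07 and -1.83, edgeR FDR 0.148 and 0.0898), and the call for ileum against duodenum held without each library in turn.

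Onecut2, a cut-homeodomain factor of the hepatocyte nuclear factor 6 family found in proximal endoderm, fell furthest of the 9 from duodenum to ileum. It was 96.5, 25.7 and 52.9 CPM in the WT duodenum (58.3 ± 35.7 SD), 19.1, 19.4 and 24.1 CPM in the jejunum (20.9 ± 2.77 SD) and 0.255 and 0.437 CPM in the ileum. All 3 segments were separate, although the lowest duodenal library was only just above the highest jejunal one. The log2 fold change was -7.36 for ileum against duodenum (SE 0.70, edgeR FDR 0.000523) and -5.89 for ileum against jejunum (SE 0.67, edgeR FDR 0.00798). Jejunum against duodenum, at -1.48 (SE 0.41, edgeR FDR 0.173), did not pass, but it did without duodenal library 2 (-1.83, edgeR FDR 0.0118). The call for ileum against jejunum was lost without ileal library 1 (-5.56, edgeR FDR 0.123).

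Cdx1 ran the other way. It was 58.8, 43.2 and 46.9 CPM in the WT duodenum (49.6 ± 8.13 SD), 74.9, 77.2 and 61.8 CPM in the jejunum (71.3 ± 8.35 SD) and 79.8 and 111 CPM in the ileum (95.4 ± 22.1 SD). No jejunal or ileal library was as low as a duodenal one. Cdx1 rose by a log2 fold change of 0.97 from duodenum to ileum (SE 0.22, edgeR FDR 0.0318), and neither neighbouring step passed (0.53 and 0.43, edgeR FDR 0.289 and 0.949). The call was lost without duodenal library 3 (0.93, edgeR FDR 0.0775), ileal library 1 (1.16, edgeR FDR 0.0759) or ileal library 2 (0.72, edgeR FDR 0.281). Its relative Cdx2 was 69.0 to 99.8 CPM in the duodenum, 101 to 117 CPM in the jejunum and 86.7 and 115 CPM in the ileum, with no difference between duodenum and ileum beyond the spread (0.36, edgeR FDR 0.446).

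The HNF4 pair differed in how even it was. Hnf4a was 927, 958 and 973 CPM in the WT duodenum, 965, 977 and 1015 CPM in the jejunum and 910.4 and 941 CPM in the ileum, and the duodenal libraries overlapped those of both other segments, while the ileal ones lay below the jejunal ones. Its log2 fold change from duodenum to ileum was -0.01 (edgeR FDR 0.977). Hnf4g was 298, 315 and 303 CPM in the duodenum, 198, 243 and 319 CPM in the jejunum and 169 and 165 CPM in the ileum. The ileal libraries were the lowest, and the jejunal ones spread over most of the range, so that ileum against duodenum missed the threshold (-0.84, SE 0.22, edgeR FDR 0.0604).

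Gata5 and Gata6, the other GATA factors of the intestinal epithelium, were nearly level. Gata5 was 39.1 to 41.1 CPM in the WT duodenum, 48.1 to 58.2 CPM in the jejunum and 50.0 and 50.9 CPM in the ileum, and all jejunal and ileal libraries lay above the duodenal ones without passing the test (ileum against duodenum 0.35, edgeR FDR 0.294). Gata6 was 41.1 to 61.2 CPM, 43.3 to 53.3 CPM and 37.6 to 48.5 CPM, with overlapping segments (-0.14, edgeR FDR 0.808).

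The factors differ in transcript length, and their order within a segment is therefore given as CPM per kilobase of exon. In the WT duodenum the means were 218 for Hnf4a, 116 for Hnf4g, 49.4 for Gata4, 35.3 for Cdx2, 28.4 for Cdx1, 14.9 for Gata6, 12.3 for Gata5, 3.59 for Onecut2 and 2.36 for Pdx1. In the ileum Hnf4a (212) and Hnf4g (63.5) still led, followed by Cdx1 (54.5) and Cdx2 (44.5), while Gata4 stood at 8.89, below Gata5 (15.4) and Gata6 (13.3). Among Gata4, Gata5 and Gata6, Gata4 was thus the highest in the duodenum and the lowest in the ileum. Per kilobase, Onecut2 and Pdx1 reached only 0.021 and 0.025 in the ileum.

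Lists of known target genes of these factors were read in the same fit, from duodenum to ileum in WT IECs. Of 8 genes activated by GATA4 in the jejunum, 5 were lower and 0 higher, with a median log2 fold change of -3.97 against 0.01 over all genes. They include the lipid handling genes Fabp1 (-6.27) and Apoa4 (-5.39), the vitamin A binding gene Rbp2 (-5.02) and Lct (-4.53). Of 5 ileal genes that GATA4 represses, 4 were higher (median 6.78), namely the hormone gene Fgf15 (7.99), Fabp6 (7.87), Slc10a2 (6.78) and the bile acid exporter subunit Slc51b (2.05). Both GATA4 lists are defined by segment, as jejunal and ileal genes, so their directions here were largely set in advance. Fabp6 and Slc10a2 also served to read the position labels. The lists are therefore a description, and the part of GATA4 was not tested. Of 6 CDX2-regulated genes, the mucin Muc2 (2.34) and the protease Mep1a (2.22) were higher (median 0.10). Of 6 HNF4-regulated lipid genes tested, the lipoprotein assembly gene Mttp (-1.68) and the apolipoprotein Apoc2 (-2.82) were lower (median -1.09). Among 20 other epithelial transcription factors, 6 were higher and 0 lower (median 0.51), including Prox1 (2.06), Klf4 (1.77) and Foxa1 (1.48). Of the relatives of the 9 factors (Gata1, Gata2, Gata3, Cdx4, Onecut1, Onecut3), only Gata3 reached the count minimum in these cells, and it was not called.

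The second comparison, Btnl2-KO against WT IECs within each segment, called 0 of 9 factors for the duodenum, 0 of 8 tested for the jejunum and 0 of 8 tested for the ileum. The share of all genes called was 0%, 0% and 0.00774%. The targeted gene Btnl2 was called in the ileum (-5.88, edgeR FDR 0.00143). It was not called in the duodenum (-4.13, edgeR FDR 0.999972) or jejunum (-2.74, edgeR FDR 0.568). The duodenal and jejunal fits thus missed a known difference, and 0 calls in them do not show that the factors are unchanged. At an unadjusted edgeR p under 0.05 there was 1 factor in the duodenum, Cdx1 with a log2 fold change of 0.66. There was 1 in the jejunum, Gata5 with -0.38, and 0 in the ileum, and DESeq2 and limma-voom called 0 in each. Pdx1 was under the count minimum in the jejunum and ileum, and exact permutation tests gave p = 0.3 and p = 0.4, where the smallest these group sizes allow is 0.1 and 0.2.

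The widest genotype differences came from the libraries that stand apart. Onecut2 was 126, 0.270 and 0.389 CPM in the 3 Btnl2-KO ileal libraries, against 0.255 and 0.437 CPM in WT, and its log2 fold change of 6.93 (SE 3.20, edgeR FDR 0.900) rests on the library labelled ileal Btnl2-KO 1. The same library held 153 CPM of Gata4 and 4.61 CPM of Pdx1, where the other Btnl2-KO ileal libraries held 25.9 and 34.6 CPM, and 0.0675 and 0.130 CPM. Of the 87 Pdx1 counts in the Btnl2-KO ileum, 80 were in it. Conversely, the library labelled duodenal Btnl2-KO 1 held 0 CPM of Pdx1, 50.7 CPM of Gata4 and 2.72 CPM of Onecut2, against 8.68, 159.8 and 99.1 CPM in its companion, and the one labelled jejunal Btnl2-KO 2 held 37.7 CPM of Gata4 against 109.5 and 113 CPM. For Gata4 and Onecut2, the library labelled ileal thus lay above every WT jejunal library, and the ones labelled duodenal and jejunal lay between the WT ileal and WT jejunal libraries (Onecut2 14.1 CPM in the latter).

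Without the 3 libraries, in one fit of the other 13, the duodenal Gata4 difference went from -0.76 to -0.17, the jejunal one from -0.53 to -0.17 and the ileal one from 1.15 to -0.10. The ileal Onecut2 difference went from 6.93 to -0.05. Again 0 factors were called in any segment, with 1 Btnl2-KO library left in the duodenum, which is assumed to vary like the other groups. The levels of the retained Btnl2-KO libraries lay near those of WT: Gata4 was 159.8 CPM in the duodenum, 109.5 and 113 CPM in the jejunum and 25.9 and 34.6 CPM in the ileum. The 3 libraries were picked by Fabp6 and Slc10a2, both on the list of genes that GATA4 represses. The smaller Gata4 differences are therefore not independent of that choice. In this fit, WT ileum against duodenum kept Pdx1, Gata4, Cdx1 and Onecut2 (edgeR FDR 0.00269, 0.000106, 0.0088 and 8.28e-05) and added Hnf4g (-0.84, edgeR FDR 0.0160). The share of all genes called in this 13-library fit is not given, so its calls cannot be read against other genes. With all 16 libraries in one fit, the same contrast called 0 factors.

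γδ IEL libraries were sorted for T cells, yet all 22 carried epithelial RNA. Summed over 12 pan-epithelial genes (Epcam, Cdh1, Vil1, keratins and others), it was 736 to 9603 CPM, against 6834 to 12046 CPM in IECs. All 9 factors were detected in at least some of these libraries. The highest γδ IEL level lay below the lowest IEC level for Gata5, Gata6, Cdx2, Hnf4a and Hnf4g, whereas Cdx1 reached 148 CPM, above its highest IEC level of 123 CPM. Jejunal Btnl2-KO library 2, which had the lowest epithelial sum, had the lowest Hnf4a (1.15 CPM), Cdx1 (2.33 CPM), Cdx2 (0.268 CPM), Gata5 (0.153 CPM) and Gata6 (0.191 CPM). WT ileal library 2, which had the highest sum, had the highest Hnf4a (98.8 CPM) and Cdx1 (148 CPM). Whether T cells contribute to any of these levels was not tested.

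**Figure D2:**
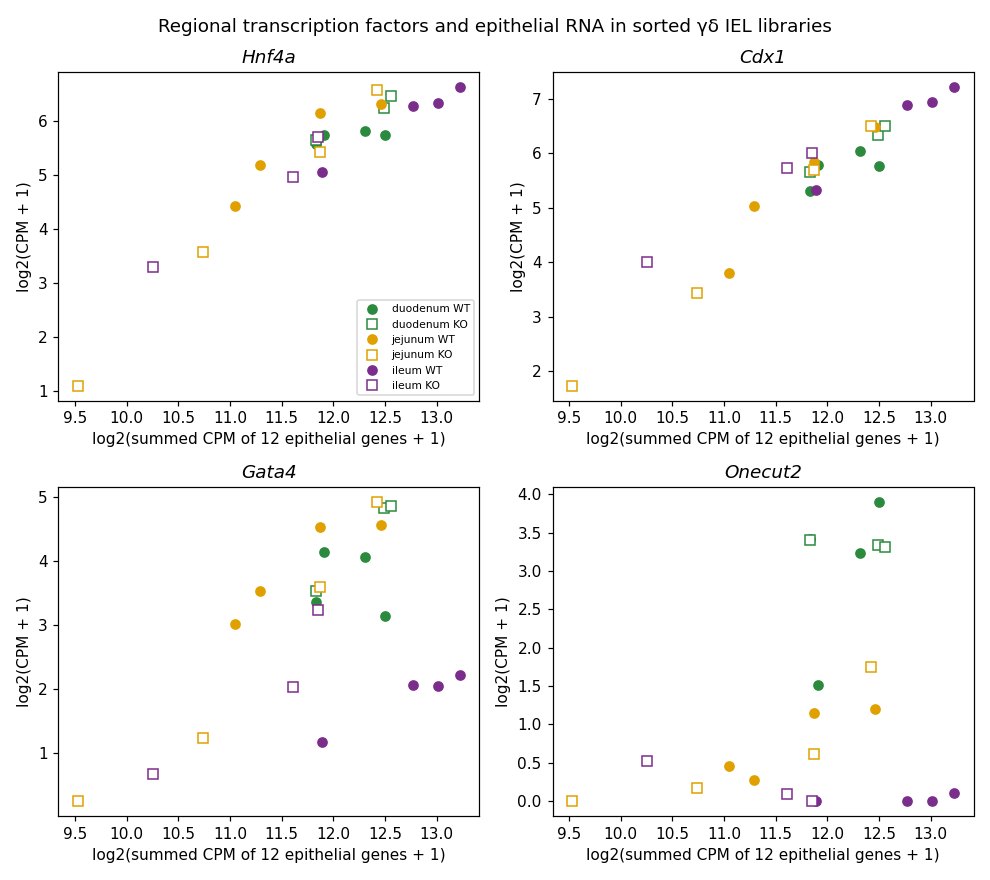
Level of Hnf4a, Cdx1, Gata4 and Onecut2 in the 22 γδ IEL libraries, as log2(CPM + 1), against the summed level of 12 pan-epithelial genes in the same library, as log2(summed CPM + 1). Green, yellow and purple stand for duodenum, jejunum and ileum, filled circles for WT and open squares for Btnl2-KO; Hnf4a and Cdx1 climb with the epithelial sum, while the WT ileal libraries lie low for Gata4 and Onecut2 at sums of 3788 to 9603 CPM.

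The segments were also compared in the WT γδ IEL libraries. For WT ileum against duodenum, 3 of 9 factors were called (2.11% of all genes), and these were Pdx1, Gata4 and Onecut2. For jejunum against duodenum it was 2 of 9 (22.5% of all genes), and for ileum against jejunum 2 of 9 (21.9%). With 2 of 9, the factors were called about as often as other genes in those 2 comparisons.

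Onecut2 was 13.9, 8.44, 1.87 and 9.74 CPM in the WT duodenum, 0.205, 1.30, 0.373 and 1.22 CPM in the jejunum, and 0, 0.0717, 0 and 0 CPM in the ileum. Every duodenal library lay above every jejunal one, and all ileal libraries below the jejunal ones. The fall from duodenum to jejunum was -3.42 on the log2 scale (SE 0.64, edgeR FDR 0.00260). With 1 ileal count in all, against 529 in the duodenum and 83 in the jejunum, Onecut2 was 498-fold lower than in the duodenum (exact 95% interval 89.1 to 19726) and 54.3-fold lower than in the jejunum (9.48 to 2170).

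Pdx1 was 2.49, 2.18, 0.909 and 1.73 CPM in the WT duodenal γδ IEL libraries and 0 in all 8 jejunal libraries of both genotypes. It was 0 in 6 of 7 ileal libraries and 0.143 CPM in the other. Only duodenal libraries, of both genotypes, carried more than 2 counts of it, at 0.351 to 2.56 CPM. Against a floor of 3 counts per library, the jejunal level in WT was at least 14.2-fold lower than the duodenal one, and the ileal level was 56.1-fold lower by summed counts (exact 95% interval 15.2 to 468).

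Gata4 was 7.81, 15.7, 16.6 and 9.27 CPM in the WT duodenum, 10.5, 22.5, 7.04 and 22 CPM in the jejunum and 1.25, 3.65, 3.13 and 3.16 CPM in the ileum, where all libraries lay below all others. It was lower in the ileum than in the duodenum (-2.14, SE 0.42, edgeR FDR 0.0158) and the jejunum (-2.45, SE 0.42, edgeR FDR 0.00448). The first of these calls was lost without ileal library 3 or 4 (-2.20 each, edgeR FDR 0.0506 and 0.0505). Per 1000 CPM of summed pan-epithelial RNA, WT Gata4 was 2.83 ± 1.23 (SD, n = 4) for the duodenum, 4.35 ± 1.09 for the jejunum and 0.385 ± 0.05 for the ileum, where no library overlapped the other segments. The same ratio for Hnf4a was 11.7 ± 2.04, 14.2 ± 3.76 and 9.89 ± 1.03, and for Cdx1 11.7 ± 2.19, 12.4 ± 4.34 and 14.3 ± 2.75, with segments overlapping. In WT duodenal IECs the same ratio was 98.1 ± 16.5 for Hnf4a and 18.1 ± 1.85 for Gata4, higher than in the γδ IEL libraries, and 5.12 ± 1.19 for Cdx1, lower than in them, a difference between fractions that was not tested.

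With the mean log2 level of the pan-epithelial genes as a covariate, Gata4 in WT ileum against duodenum was -2.72 (edgeR FDR 0.00018), and Hnf4g joined the calls (-1.46, edgeR FDR 0.00428). For ileum against jejunum Hnf4g was also called in that fit (-1.63, edgeR FDR 0.0199). The share of all genes called with the covariate is not given, so these calls cannot be read against other genes. Hnf4g was 21.4 to 72.8 CPM in the WT duodenum, 22.6 to 54.5 CPM in the jejunum and 8.88 to 34.9 CPM in the ileum, and without the covariate the segments did not differ beyond their spread (ileum against duodenum -0.79, edgeR FDR 0.491). Among the target lists, in ileum against duodenum without the covariate, 5 of 8 GATA4-activated genes were lower in these libraries (median -5.29, against -0.01 over all genes), led by Fabp1 (-9.49) and Apoa4 (-8.52). Of the 5 GATA4-repressed ileal genes, Fabp6 (12.82) and Slc10a2 (3.44) were higher (median 3.44). As in IECs, these lists are defined by segment, and their directions were largely set in advance.

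**Figure D3:**
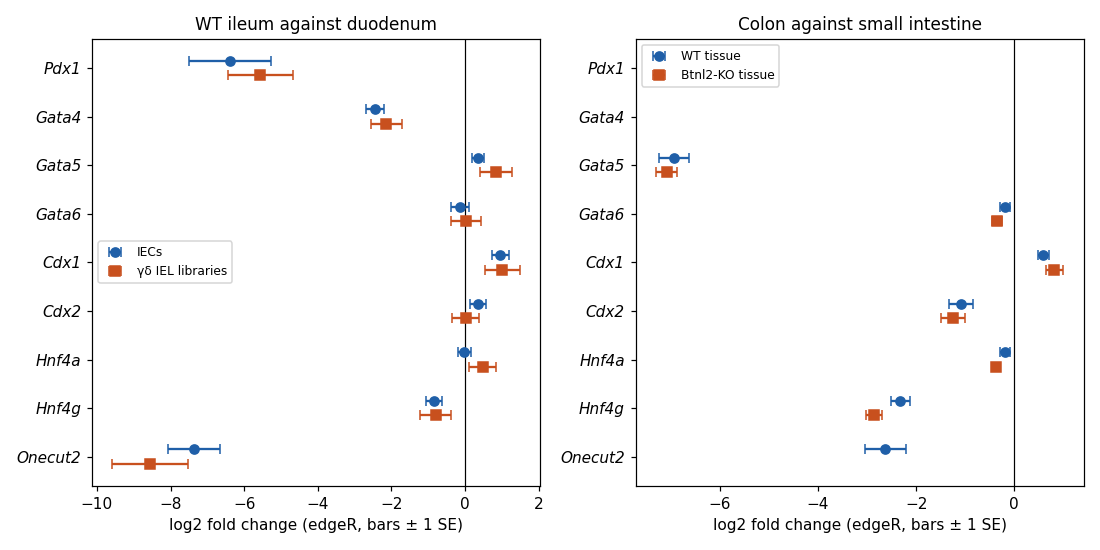
Log2 fold changes of the 9 factors with bars of 1 SE. On the left, WT ileum against duodenum in IECs (blue circles) and γδ IEL libraries (orange squares), with Onecut2, Pdx1 and Gata4 lowest in both; on the right, colon against small intestine tissue in WT (blue circles) and Btnl2-KO mice (orange squares), with Gata5 lowest in both and no point where a gene was under the count minimum.

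Between Btnl2-KO and WT γδ IEL libraries, edgeR called 0 of 9 factors for the duodenum, 0 of 8 tested for the jejunum and 0 of 7 tested for the ileum (0.00789%, 0.00794% and 0% of all genes). Btnl2 itself was called in the duodenum and jejunum (-9.73 and -8.43, edgeR FDR 0.0124 and 0.0260) but not in the ileum (-5.92, edgeR FDR 0.263). The ileal fit thus missed a known difference, and its 0 calls do not show that the factors are unchanged. The study, using DESeq2 at these thresholds, does report genes lower in ileal Btnl2-KO γδ IELs. At an unadjusted edgeR p under 0.05 there were 2, 0 and 4 factors, and DESeq2 called 0 in each segment. limma-voom with sample quality weights called 0 in the duodenum and jejunum but 5 in the ileum: Gata6 (-1.34), Cdx1 (-1.29), Cdx2 (-1.49), Hnf4a (-1.42) and Hnf4g (-2.25). The shares of all genes above are those of edgeR. None is given for limma-voom, so its 5 calls cannot be read against other genes. In edgeR these were -1.31, -1.28, -1.36, -1.24 and -1.24, with a median over the 7 factors of -1.24. The pan-epithelial list moved alongside, with a median of -1.40 over 12 genes, of which 9 had an unadjusted edgeR p under 0.05, and its sum was 1221 to 3694 CPM in Btnl2-KO and 3788 to 9603 CPM in WT ileal libraries. With that list as a covariate, Gata6, Cdx1, Cdx2, Hnf4a and Hnf4g were 0.10, 0.47, 0.34, 0.45 and 1.12 (edgeR FDR 0.722 to 0.952). Because the epithelial sum did not overlap between genotypes, this fit could separate genotype from epithelial RNA only poorly. No conclusion is drawn from its values. Gata4 was 3.09, 0.588 and 8.43 CPM in Btnl2-KO and 1.25 to 3.65 CPM in WT ileal libraries, which overlap (0.54, edgeR FDR 0.824). Per 1000 CPM of epithelial RNA it was 0.986, 0.481 and 2.28 in Btnl2-KO and 0.330 to 0.452 in WT libraries, without overlap, and with the covariate its log2 fold change was 2.53 (SE 0.60, edgeR FDR 0.722), which was not called. Gata5 was -0.57 in edgeR (FDR 0.697). Its ratio to epithelial RNA was also without overlap, at 2.21 to 2.82 in Btnl2-KO and 1.29 to 1.69 in WT libraries. With the covariate Gata5 was 0.69 (SE 0.41, edgeR FDR 0.722). The epithelial sum that divides the Gata4 and Gata5 values is itself lower in every Btnl2-KO than in every WT ileal library. The share of all genes without overlap in this ratio was not counted, and the smallest exact permutation p for these group sizes is 0.0571. Pdx1 in the jejunum and ileum and Onecut2 in the ileum were under the count minimum, and exact permutation tests gave p = 1, p = 1 and p = 0.514. Pdx1 was 0 in every jejunal library and in every ileal library except a WT one at 0.143 CPM. Its tests therefore could not compare the genotypes.

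The third comparison set the colon against the small intestine in whole tissue, in WT and in Btnl2-KO mice, which share no library. Gata5, Hnf4g and Cdx2 were lower in the colon of both genotypes, Onecut2 was lower too, Cdx1 was slightly higher, and Hnf4a and Gata6 stayed within the fold threshold. In WT mice 5 of 7 factors tested were called, 4 lower and 1 higher (27.6% of all genes, 15.6% lower and 12% higher), and in Btnl2-KO mice 4 of 6, 3 lower and 1 higher (30.2%, 15.7% lower and 14.4% higher). The organs differ in a large part of the transcriptome, and these counts are to be read against that.

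Gata5 fell furthest. It ranged from 48.4 to 128 CPM in WT small intestine (median 66.7, n = 7) and from 0.377 to 0.892 CPM in WT colon (median 0.653, n = 6). In Btnl2-KO mice the ranges were 78.2 to 170.2 CPM (median 108, n = 7) and 0.402 to 1.03 CPM (median 0.851, n = 7). The organs were separated by a wide empty interval in both genotypes, with log2 fold changes of -6.94 (SE 0.31, edgeR FDR 4.59e-10) and -7.09 (SE 0.22, edgeR FDR 5.59e-13). In IECs it was 35.1 to 58.2 CPM over all 16 libraries of the small intestine.

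**Figure D4:**
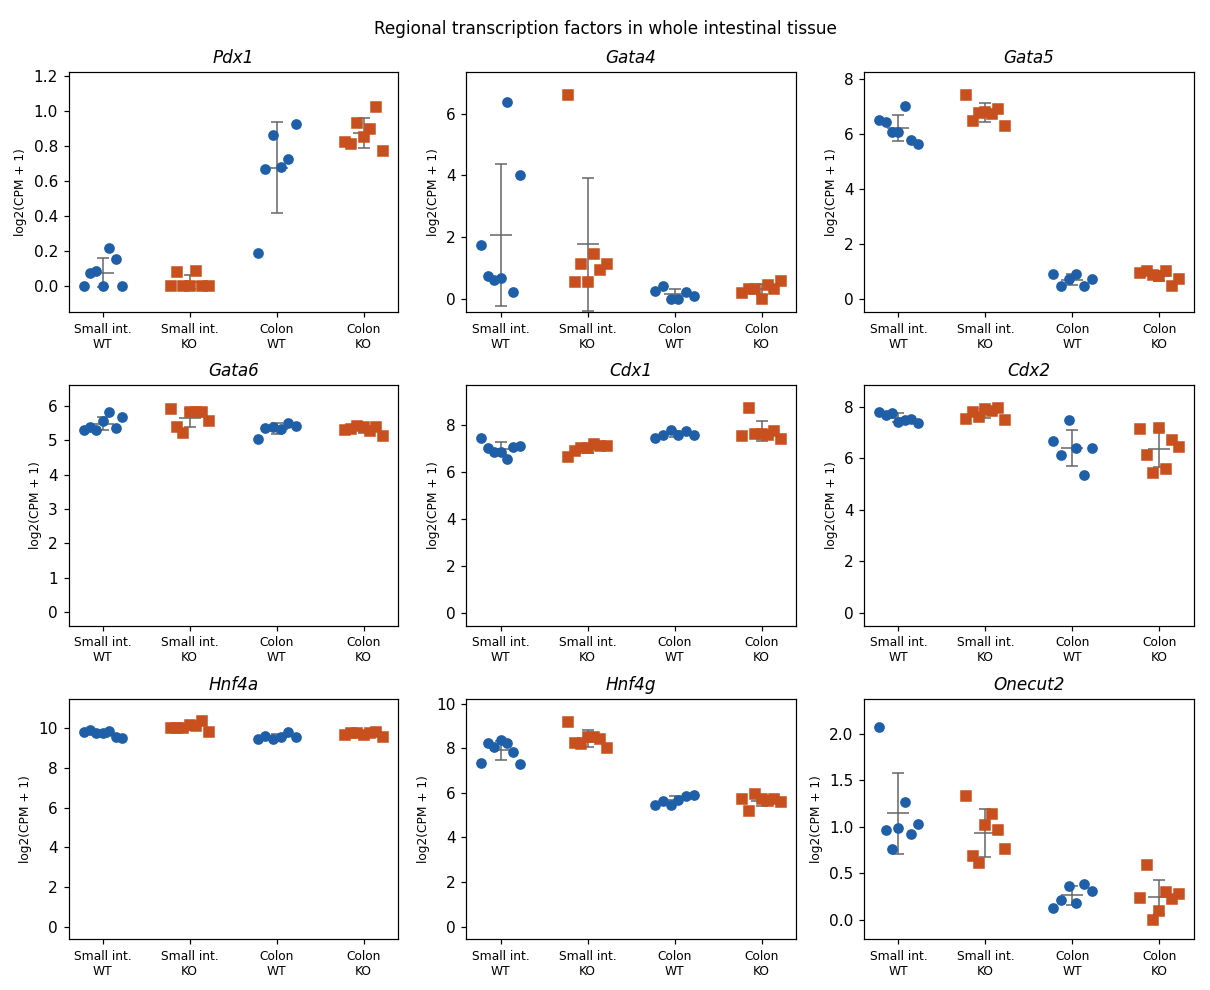
Level of the 9 factors in the 27 tissue libraries, as log2(CPM + 1), by organ and genotype. Blue circles are WT, orange squares Btnl2-KO libraries, and grey bars the group mean ± SD; Gata5 and Hnf4g separate the organs without overlap, and Gata4 in the small intestine is low in all but a few libraries.

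Hnf4g and Hnf4a parted in the colon. Hnf4g was 155 to 329 CPM in WT small intestine (median 263) and 43.4 to 58.3 CPM in WT colon (median 50.1), with no overlap (-2.32, SE 0.19, edgeR FDR 1.98e-07). In Btnl2-KO mice it was 261 to 589 CPM (median 338) and 35.5 to 60.1 CPM (median 51.8), again without overlap (-2.86, SE 0.17, edgeR FDR 1e-09). Hnf4a was 726 to 964 CPM in WT small intestine (median 871) and 694 to 899 CPM in WT colon (median 749.5), and these overlapped (-0.20, edgeR FDR 0.124). In Btnl2-KO mice it was 900.1 to 1301 and 749.7 to 907 CPM, a log2 fold change of -0.37 (SE 0.09, edgeR FDR 0.00229) that is below the fold threshold. Per kilobase, Hnf4a was 197 in WT small intestine and 174 in colon, and Hnf4g 94.8 and 19.2.

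The CDX pair moved in opposite directions. Cdx2 was 162 to 218 CPM in WT small intestine (median 184) and 39.4 to 176 CPM in WT colon (median 83.0). In Btnl2-KO mice it was 179.6 to 244 CPM (median 219) and 42.1 to 142 CPM (median 85.2). The colon libraries of both genotypes varied widely among themselves. In Btnl2-KO mice all lay below the small intestine, whereas in WT the highest colon library lay within the small intestine range. The log2 fold change was -1.08 (SE 0.25, edgeR FDR 0.00234) in WT and -1.24 (SE 0.24, edgeR FDR 0.000461) in Btnl2-KO mice.

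Cdx1 was 92.8 to 174 CPM in WT small intestine (median 127) and 175 to 216 CPM in WT colon (median 187). The lowest colon library was just above the highest small intestine library. The log2 fold change of 0.59 (SE 0.12, edgeR FDR 0.000905) sits at the fold threshold. It was 0.54 without the 3 small intestine libraries low in Slc10a2, 0.57 without the 2 rich in Car1, and 0.57, 0.56, 0.57, 0.57 and 0.53 without WT colon library 3 or 5 or WT small intestine library 3, 4 or 5, all below the threshold. In Btnl2-KO mice Cdx1 was 99.4 to 144 CPM (median 129) and 169.6 to 416 CPM (median 192), with no overlap (0.82, SE 0.18, edgeR FDR 0.00126). Without colon library 2, the highest, it was 0.57 (edgeR FDR 2.1e-05), past the FDR but below the fold threshold.

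Gata6 did not pass the thresholds in either genotype. It was 38.2 to 55.3 CPM in WT small intestine (median 40.9) and 32.2 to 44.2 CPM in WT colon (median 40.3), which overlapped (-0.18, edgeR FDR 0.158). In Btnl2-KO mice it was 36.3 to 59.1 and 34.1 to 41.3 CPM (-0.36, SE 0.10, edgeR FDR 0.00678). Of Gata4, Gata5 and Gata6, the last was the one retained in the colon, where the other two were at most 1.03 CPM.

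Onecut2, Pdx1 and, in most libraries, Gata4 were near the detection limit in tissue. Onecut2 was 0.701 to 3.19 CPM in WT small intestine (median 0.982) and 0.0939 to 0.304 CPM in WT colon (median 0.201), without overlap (-2.63, SE 0.42, edgeR FDR 0.000136). In Btnl2-KO mice it was 0.525 to 1.52 and 0 to 0.504 CPM, under the count minimum, and an exact two-sided permutation test of log2(CPM + 1) gave p = 0.000583, the smallest that 7 against 7 libraries allow (adjusted over 13 such tests, 0.00379). Pdx1 was higher in the colon: 0.141 to 0.902 CPM in WT (median 0.627) against 0 to 0.163 CPM in the small intestine (median 0.0503), and 0.711 to 1.03 CPM in Btnl2-KO mice (median 0.806) against 0 to 0.0600 CPM (median 0). The lowest WT colon library overlapped the WT small intestine, and no Btnl2-KO colon library did. The exact permutation p was 0.00233 in WT and 0.000583 in Btnl2-KO mice (adjusted 0.00758 and 0.00379), and by summed counts Pdx1 was 10.9-fold higher (95% interval 5 to 28.1) and 44.6-fold higher (12 to 373). Pancreatic RNA was present in 2 colon libraries: the 8 acinar genes summed to 866 CPM in WT library 1, which had the lowest colonic Pdx1 (0.141 CPM), and to 1386 CPM in Btnl2-KO library 5 (Pdx1 0.861 CPM). In the other 11 colon libraries they summed to 0.336 to 1.47 CPM, and Pdx1 was 0.592 to 1.03 CPM. It amounted to 0.286 CPM per kilobase in WT colon, against 2.36 in WT duodenal IECs.

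Gata4 showed how uneven the small intestine tissue was. It was 0.167 to 82.7 CPM in WT (median 0.654) and 0.447 to 95.6 CPM in Btnl2-KO small intestine (median 1.16), and at most 0.323 and 0.498 CPM in the colon. The 3 small intestine libraries low in Slc10a2 held 95.6 (Btnl2-KO 1), 82.7 (WT 5) and 15.1 CPM (WT 7), and the first also held the highest Hnf4g. The other 11 small intestine libraries held 0.167 to 2.30 CPM of Gata4, below the 29.9 and 34.9 CPM of WT ileal IECs. The exact permutation p for colon against small intestine was 0.00466 in WT and 0.00175 in Btnl2-KO mice (adjusted 0.0121 and 0.00758). The 3 libraries were picked by Slc10a2, itself on the list of genes that GATA4 represses, so their Gata4 level is not independent of that choice. Without these 3 libraries Gata4 was 0.167 to 2.30 CPM in the small intestine against 0 to 0.498 CPM in the colon, which overlap. Gata5, Hnf4g, Cdx2 and Onecut2 kept their calls in WT (-6.86, -2.37, -1.13 and -2.66), and Gata5, Hnf4g, Cdx2 and Cdx1 in Btnl2-KO mice (-6.96, -2.70, -1.28 and 0.76), where Pdx1 was also called (4.85). The share of all genes called is not given for these fits.

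**Figure D5:**
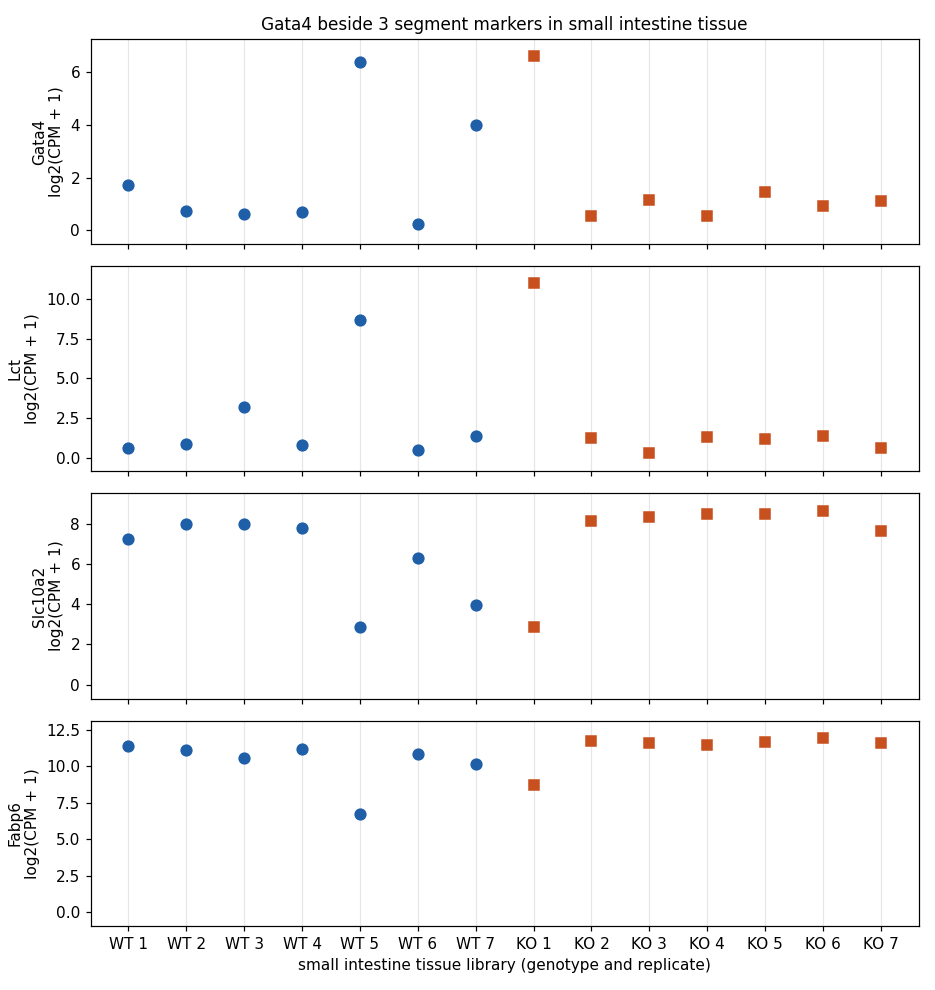
Gata4 in the 14 small intestine tissue libraries, as log2(CPM + 1), above the segment markers Lct, Slc10a2 and Fabp6 on the same scale. Blue circles are WT and orange squares Btnl2-KO libraries; the 3 libraries with the highest Gata4 (WT 5, WT 7 and Btnl2-KO 1) are those with the lowest Slc10a2.

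Between colon and small intestine, the lists of target genes were mostly lower in the colon. In WT, 6 of 7 GATA4-activated genes tested were lower and 1 higher (median -4.66, against -0.02 over all genes), 5 of 5 GATA4-repressed ileal genes were lower (median -9.75), 5 of 6 HNF4-regulated lipid genes were lower and 1 higher (median -3.61), and 3 of 6 CDX2-regulated genes were lower and 1 higher (median -0.65). Sis, the sucrase gene, was lowest among the last (-10.31), and Muc2 was higher (1.04). The gluconeogenic gene Pck1 was the HNF4 list member that rose (2.19), and is named after its value was seen. Of 20 other epithelial factors 9 were higher and 7 lower, including Foxa2 (2.93) on one side and Creb3l3 (-4.00), a lipid regulator, and Isx (-3.13), a repressor of vitamin A uptake, on the other. In Btnl2-KO mice the numbers were 6 of 7 lower, 5 of 5 lower, 5 lower and 1 higher of 6, 4 lower of 6, and again 9 higher and 7 lower of 20. Both GATA4 lists are of small intestine genes, so a lower level in the colon was largely set by their choice.

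The organ difference itself was compared between genotypes in one fit over the 27 tissue libraries, and 0 of 9 factors were called (0.0193% of all genes). Hnf4g alone had an unadjusted edgeR p under 0.05 (-0.54, edgeR FDR 0.360), and DESeq2 and limma-voom called 0. Directly between genotypes, 0 of 8 factors tested were called in the small intestine (0.0202% of all genes) and 0 of 7 in the colon (0.0269%), and DESeq2 and limma-voom called 0 in both organs. In the small intestine 3 factors had an unadjusted edgeR p under 0.05, all higher in Btnl2-KO mice: Gata5 (0.52, edgeR FDR 0.172), Hnf4a (0.32, edgeR FDR 0.130) and Hnf4g (0.52, edgeR FDR 0.168). In the colon it was 0 factors. Gata4 in the small intestine was too uneven to compare (-0.02, SE 1.40). Pdx1 in the small intestine, and Gata4 and Onecut2 in the colon, were compared by exact permutation tests with p = 0.249, 0.166 and 0.838.

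Over the 16 IEC libraries, which share the table's preparation and differ in segment, the factors fell into groups by their levels. As a description, Gata4 and Onecut2 had a Pearson correlation of log2(CPM + 1) of 0.90, Hnf4g and Onecut2 of 0.80 and Cdx1 and Cdx2 of 0.76, while Cdx1 was opposed to Gata4 (-0.83) and Onecut2 (-0.74). The 3 genes most like each factor, of 13343 compared, were Akp3 (0.978), Otop3 (0.977) and Slc16a9 (0.973) for Pdx1, Mxra7 (0.988), Afp (0.974) and Lmcd1 (0.972) for Gata4, and Prdm16 (0.984), 5930403L14Rik (0.982) and Ros1 (0.963) for Onecut2. They were Scoc (0.945), Arl14 (0.937) and Ncoa7 (0.923) for Hnf4g and Lmna (0.935), Hcn2 (0.933) and H1f10 (0.928) for Cdx1. For the level factors the best likeness was lower, at 0.910 for Gata5 (Lrch4), 0.900 for Cdx2 (Srf), 0.898 for Gata6 (Aldh2) and 0.858 for Hnf4a (Dnajc14). Over the 8 WT libraries alone, Mxra7 stayed among the 3 genes most like Gata4, Prdm16 and 5930403L14Rik among those most like Onecut2, Akp3 and Otop3 among those most like Pdx1, and none of those named for the other 6 factors. For Gata5, Cpne2, not named above, was among the 3 both over all 16 libraries (0.887) and over the WT libraries (0.983). By Spearman correlation over all IEC libraries, none of the 3 named for Pdx1 stayed.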

How the data were processed

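Bulk RNA-sequencing of 65 libraries in 3 tables was used, and the single-cell files were not used here. Alignment by the authors was in ArrayStudio against a modified mouse genome, reads per gene were estimated with RSEM, and the deposited values are expected counts, neither normalised nor rounded. The submitters' processing notes name GRCm38, and the paper and labels name different library kits. Groups came from the labels, and 1 column without a matching sample was not used here.

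Counts were rounded to whole numbers. Replicate pairs were checked with a chi-square test over genes, and all differed by more than sampling noise (chi-square per degree of freedom at least 5.08). Of 24475 identifiers, 100 matched no symbol (0.253 to 9.24% of a library's counts) and stayed in the tests. Genes were tested where the number of libraries with 10 or more counts was no less than the size of the smaller group, with edgeR 4.0.16 (quasi-likelihood, TMM, Benjamini-Hochberg over all genes tested) and the study's thresholds, an FDR below 0.05 and a fold change above 1.5. The script was tested on simulated data. Factors under the minimum were compared by two-sided exact permutation tests of mean log2(CPM + 1) (13 tests, SciPy 1.17.1) or exact 95% intervals on summed counts, which cover counting error only.

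Alternatives were DESeq2 1.42.0, limma-voom (limma 3.58.1), RLE size factors, no count filter, no fold minimum, all libraries in one fit and each library left out. Fits without the 3 or 2 small intestine libraries that stand apart, without the 3 odd IEC libraries in one fit, of only the 2 segments compared, and with the epithelial covariate were chosen after seeing the data. The 9 factors and the gene lists were chosen with earlier results of these data known. Named genes were the factors, Btnl2, label markers, at most 4 called genes of a list with the largest change, and the 3 genes most like a factor over the 16 IEC libraries. A gene that the rule would name is not reported here. Exon lengths are from GENCODE and promoters from RefSeq.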

Additional observations from a re-analysis of the deposited data

Results flagged for a closer look

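Within groups of 4 to 10 libraries, a single library stood apart from the rest by Dixon's test in 7 of 62 groups of values, where chance gives about 1 in 20. Cdx1 was 416 CPM in Btnl2-KO colon library 2, against 169.6 to 214 CPM in the other 6. Pdx1 was 0.141 CPM in WT colon library 1, the lowest of its group. In WT ileal γδ IEL library 1, Gata4 was 1.25 CPM and Gata5 5.30 CPM, each the lowest of 4, and that library also had the lowest pan-epithelial sum of its group (3788 CPM). In Btnl2-KO small intestine library 1, one of the libraries low in Slc10a2, Gata4 was 95.6 CPM and Hnf4g 589 CPM, the highest of 7. Onecut2 was 3.19 CPM in WT small intestine library 1, against 0.701 to 1.41 CPM in the other 6.

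Hnf4a in IECs moved in opposite directions between genotypes in 2 segments: all Btnl2-KO libraries lay below all WT libraries in the jejunum (log2 fold change -0.19) and above them in the ileum (0.0874). The pattern was found by searching the 9 factors in each segment of IECs and γδ IELs. The share of all genes that separate in this way was not counted. With these group sizes the smallest exact permutation p is 0.1 for the jejunum and 0.2 for the ileum. The difference between the segments was not tested, neither value passed the edgeR test, and each Btnl2-KO group holds a library whose markers stand apart.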

How the results depend on the processing

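No paired analysis was possible because the columns carry library numbers and no replicate numbers, and no number in them or the labels matches segments or organs to a mouse or pool. Of 2086 results for single factors under the alternatives, 2025 kept their side of the threshold, some of them uncalled in both fits but with another sign, 37 lost a call, 24 gained one and 0 called values changed sign. For WT IECs, jejunum against duodenum called 1 factor in the reported fit, 2 with DESeq2, and 0 with all libraries in one fit or only the 2 segments compared, and ileum against duodenum and ileum against jejunum called 0 with all libraries in one fit, which holds the 3 libraries that stand apart. For γδ IELs, WT ileum against jejunum called 2 factors as reported, 5 with limma-voom, and 1 with all libraries in one fit or only the 2 segments. Ileal Btnl2-KO against WT called 5 with limma-voom. The share of all genes called is not given for these alternative fits, so their counts cannot be read against other genes. Colon against small intestine in Btnl2-KO mice called 4 factors as reported and 7 with no count filter or all libraries in one fit, where more factors were tested. Leaving out 1 library in turn gave 0 to 2 (jejunum against duodenum), 2 to 4 (ileum against duodenum) and 0 to 2 (ileum against jejunum) calls in WT IECs, 2 to 2, 2 to 3 and 2 to 4 in WT γδ IELs, 4 to 6 in WT and 4 to 5 in Btnl2-KO tissue, and 0 to 0 between genotypes. The cause of these changes was not tested. Groups of 2 or 3 IEC libraries, and factors at a few counts (Pdx1, Onecut2, tissue Gata4), limit precision.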
